A study of Medicago truncatula with 21 samples.

Results

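A run of 72 consecutive identifiers on chromosome 4 of Medicago truncatula was followed through seed maturation, beside the transcripts of the plastid genome. The run extended from MtrunA17_Chr4g0015541 to MtrunA17_Chr4g0016771 in the order of the number after Chr4g. Its members made up 72 of the 44473 identifiers measured, and all were taken whatever their level. The run was chosen by measured values: falls in mature abi4-1 seeds against R108, and a sum that moved with the plastid sum over the libraries taken 13 days after pollination (DAP). Values from those contrasts are therefore given as descriptions. R108 is the wild type, and the abi4 lines carry an insertion of the retrotransposon Tnt1 in ABI4 in the R108 background. The labels give 3 stages for R108 and abi4-1 (NF19813), which are 13 DAP, 24 DAP and maturity, and maturity alone for abi4-2 (NF2525). Each of these 7 groups held 3 libraries. Plants grew in a culture room, and each allele is represented by a single insertion line.

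Plastids hold a small genome of their own, which in plants encodes subunits of the photosystems, of the ATP synthase, of plastid ribosomes and of a plastid RNA polymerase. Legume seeds are commonly green while they fill and lose chlorophyll late in maturation. Plant nuclear genomes commonly carry stretches of DNA copied from the plastid, and reads from a plastid transcript can then match more than 1 place. ABI4 of Arabidopsis, an AP2/ERF transcription factor, takes part in responses to abscisic acid and sugars. None of the 44473 identifiers matched the RefSeq gene table, so no member has a gene name, a role, a position in bases or a sequence here. Whether members share sequence with the plastid genome was not tested, nor were seed marker genes or the ABI4 transcript examined.

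The deposited values are named FPKM but behave like read counts after normalization. Library totals ranged from 21035365 to 24032451 for 13 DAP, from 18365151 to 22139476 for 24 DAP and from 19162030 to 20345780 for mature seeds. The 3 stages had been scaled separately, so ratios within a library are used where stages are set side by side, and genotypes are tested within a stage. Normalized counts are not per length, and shares of the run are shares of counts. In these whole seeds, fewer cells of a type and less RNA per cell cannot be told apart.

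Of the 72 members, 15 were listed at 0 in all 21 libraries and another 11 stayed below 10 normalized counts in every library. A member was tested in a stage when at least 3 of that stage's libraries reached 10 normalized counts. That filter was passed by 26 members at 13 DAP, by 26 at 24 DAP and by 27 in mature seeds. Across stages, 17 members passed in all 3, 11 only in developing seeds (13 or 24 DAP) and 10 only in mature seeds, while 34 passed in none. A single library held between 21 and 33 members above 0. The first member, MtrunA17_Chr4g0015541, was listed at 0 or at 0.94 in the 12 developing libraries and at 81.6, 101 and 75.8 in the mature R108 libraries. The last, MtrunA17_Chr4g0016771, stood between 23.4 and 115 in developing seeds and at 36.0, 56.2 and 62.8 in mature R108. Just outside the run, MtrunA17_Chr4g0015531 was listed at 0 in all 21 libraries and MtrunA17_Chr4g0016791 in all but R108 replicate 3 at 24 DAP, where it stood at 12.95.

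Summed over its members, the run was lower in the mature seeds of both abi4 lines than in mature R108, and the genotypes overlapped at 13 and 24 DAP. At 13 DAP the R108 libraries 1 to 3 held 11921, 17054 and 21965 normalized counts of the run, beside 27937, 42263 and 54739.6 of the 85 plastid identifiers. The abi4-1 libraries at 13 DAP held 10693, 22358 and 18940.4 of the run, beside 22507, 54282 and 48287 of the plastid identifiers. Replicate 1 of both genotypes was thus the low library in both sums, and the genotypes overlapped. At 24 DAP the run sum was 8186, 6801 and 8604 for R108 and 9448, 7382 and 9085 for abi4-1. The plastid sum at 24 DAP was 20353, 14962 and 16489 for R108 and 20289, 11038 and 15699 for abi4-1, so both sums overlapped between the genotypes.

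In mature R108 seeds the run sum was 11352, 14295 and 12130.5, and the plastid sum 87587, 110131 and 100011. The 3 mature R108 libraries stood in the same order in both sums. In mature abi4-1 seeds the run sum was 2642, 2612 and 2539, and the plastid sum 22068, 22557 and 20018. In mature abi4-2 seeds they were 2595, 2611 and 2734, and 22028, 21959 and 22509. Each mature library of either abi4 line lay below each mature R108 library in both sums, and the lines overlapped in both. The run made up 0.0630 ± 0.00845% of the library total in mature R108, 0.0133 ± 0.000483% for abi4-1 and 0.0136 ± 0.000395% for abi4-2 (SD, n = 3). Mitochondrial identifiers moved the other way in the same libraries, from 0.0119 ± 0.000233% in mature R108 to 0.0275 ± 0.00622% for abi4-1 and 0.0574 ± 0.0161% for abi4-2. Their part in the result was not tested.

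**Figure D1:**
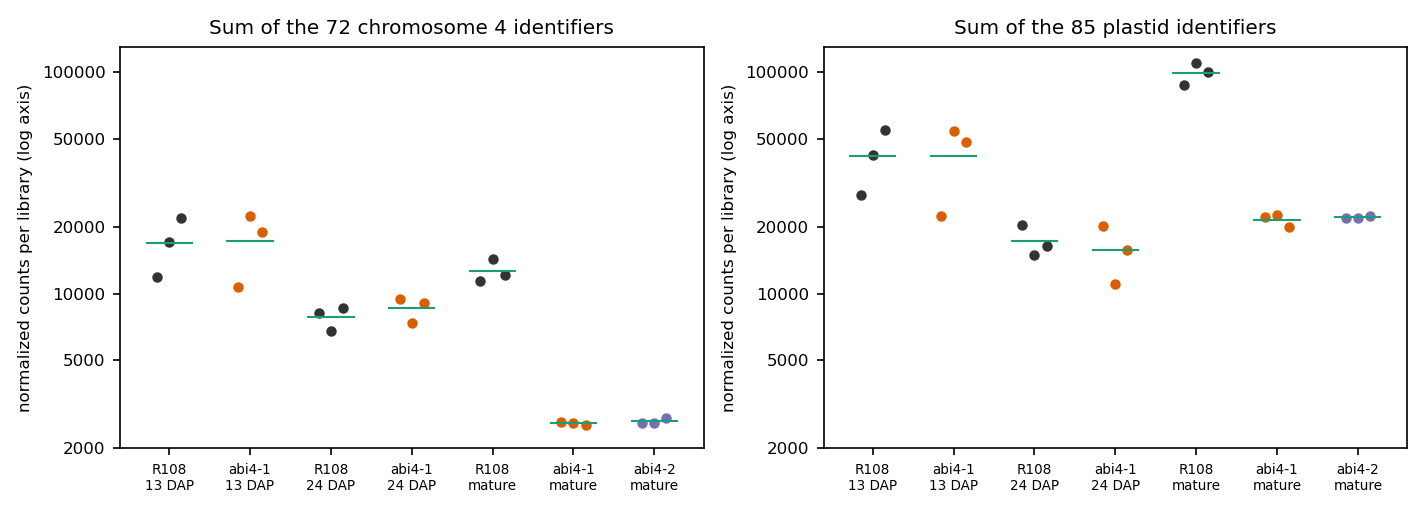
Sums of the 72 chromosome 4 identifiers (left) and of the 85 plastid identifiers (right) in each library, in normalized counts on a log axis. Points are libraries and green lines are group means (n = 3). Stages were scaled separately. In mature seeds the 6 abi4 libraries lie below the 3 R108 libraries in both panels.

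The size of the run relative to the plastid sum differed between developing and mature seeds in every library, while the genotypes overlapped within each stage. At 13 DAP the run amounted to 41.0 ± 1.41% of the plastid sum for R108 and 42.6 ± 4.33% for abi4-1 (SD, n = 3). At 24 DAP it amounted to 46.0 ± 6.0% for R108 and 57.1 ± 10.2% for abi4-1. The 24 DAP libraries 1, 2 and 3 stood at 40.2, 45.5 and 52.2% for R108 and at 46.6, 66.9 and 57.9% for abi4-1. By same-numbered pair, abi4-1 was thus higher each time at 24 DAP, but lower in pair 3 at 13 DAP. In mature seeds it was 12.7 ± 0.486% for R108, 12.1 ± 0.559% for abi4-1 and 11.9 ± 0.187% for abi4-2. Library by library, the ratio lay between 39.2 and 66.9% in the 12 developing libraries and between 11.6 and 13.0% in the 9 mature ones, and the ranges did not overlap. In mature seeds R108 lay between 12.1 and 13.0%, abi4-1 between 11.6 and 12.7% and abi4-2 between 11.8 and 12.1%. A ratio of 2 sums from the same library does not depend on how that library was scaled. Scaling aside, a stage and the authors' handling of that stage cannot be told apart in the step between developing and mature seeds. No test was made on it, since it is a score over chosen members.

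Across the developing libraries the ratio varied less once 1 member was left out. MtrunA17_Chr4g0015871, the member with the highest mean over all libraries, supplied 41.9 to 60.8% of the run's counts in the developing libraries and 3.41 to 6.87% in the mature ones. With it left out, the run stood at 21.1 to 26.2% of the plastid sum in all 12 developing libraries. Its group means were then 23.2 ± 0.274% and 22.7 ± 1.92% at 13 DAP in R108 and abi4-1, and 24.0 ± 1.42% and 24.8 ± 2.05% at 24 DAP. In mature seeds the ratio without it was 12.1 ± 0.411% for R108, 11.6 ± 0.580% for abi4-1 and 11.2 ± 0.360% for abi4-2. The step between developing and mature seeds was therefore smaller without this member but was still present in each library.

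**Figure D2:**
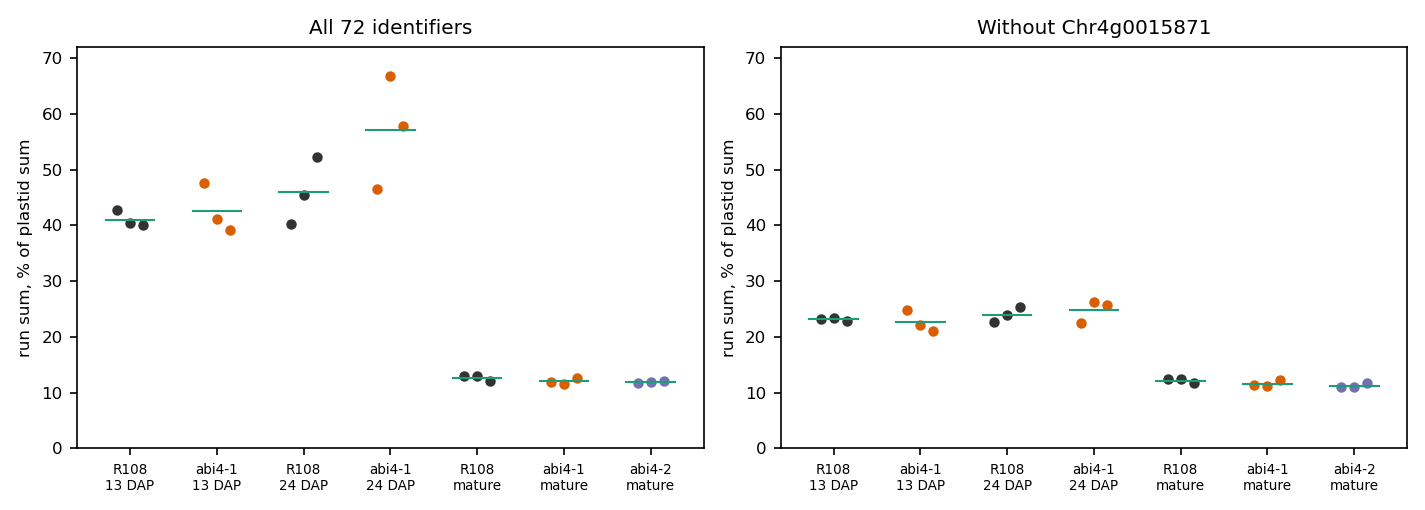
The run sum as a percentage of the plastid sum in each library, for all 72 members (left) and without MtrunA17_Chr4g0015871 (right). Points are libraries and green lines are group means (n = 3). Without that member the 12 developing libraries lie between 21.1 and 26.2%, and the 9 mature ones between 10.97 and 12.4%.

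Whether the run moved with the plastid sum was read separately within each stage, as log2 of both sums. At 13 DAP, whose libraries had been used to choose the run, Pearson's r was 0.994 and Spearman's rho 0.943 over 6 libraries, and r was 0.989 over the 4 left without those farthest from the median plastid sum. At 24 DAP, whose libraries had not been used, r was 0.591 and rho 0.543 over 6 libraries, with r = 0.691 over 4. Without MtrunA17_Chr4g0015871 the 24 DAP values were r = 0.975 and rho = 1, and r = 0.894 over 4 libraries. That member alone gave r = -0.0545 with the plastid sum over the 6 libraries at 24 DAP and 0.567 over 4, so its sign rests on the libraries left out, and 0.975 at 13 DAP. Plastid sums spanned 1.84-fold at 24 DAP and 2.43-fold at 13 DAP. Numerator and plastid sum come from the same libraries and share their depth and scale. In mature seeds R108 and the abi4 lines form separate clusters, so no r is given.

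The same relation was read for the chromosome 4 identifiers beside the run. The sum of the 72 identifiers before the run gave r = 0.0775 with the plastid sum at 13 DAP and 0.633 at 24 DAP, where the run's own sum gave 0.591, and -0.417 over the 4 central libraries at 24 DAP. The sum of the 72 identifiers after it gave r = -0.348 at 13 DAP and 0.237 at 24 DAP. The difference between these lists and the run was not tested. Same-numbered libraries give another view of the 24 DAP data, since the numbers were taken as pairs at that stage. Between abi4-1 and R108 libraries 1, 2 and 3, the plastid sum differed by -0.0046, -0.44 and -0.071 on the log2 scale, and the run without MtrunA17_Chr4g0015871 by -0.014, -0.31 and -0.051. In that same order MtrunA17_Chr4g0015871 differed by 0.45, 0.48 and 0.19, higher in abi4-1 in all 3 pairs.

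Member by member, the relation was uneven. The 13 DAP libraries had been used to choose the run by its sum, so the values there are a description and no support. At that stage the 26 tested members had a median r of 0.784 with the plastid sum, from -0.156 to 0.996. The median over the 22376 other nuclear identifiers tested was -0.0122. At 24 DAP the members had a median of 0.435, from -0.562 to 0.994, against -0.0206 over 19408 others. Of the 26 members 3 exceeded 0.9, where 1.10% of the others did. Those 3 were MtrunA17_Chr4g0015801 at 0.975, MtrunA17_Chr4g0015971 at 0.955 and MtrunA17_Chr4g0016721 at 0.994. Another 8 members had a negative r at 24 DAP, among them MtrunA17_Chr4g0015841 at -0.157. These values describe 6 libraries per stage, which share depth and scale.

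**Figure D3:**
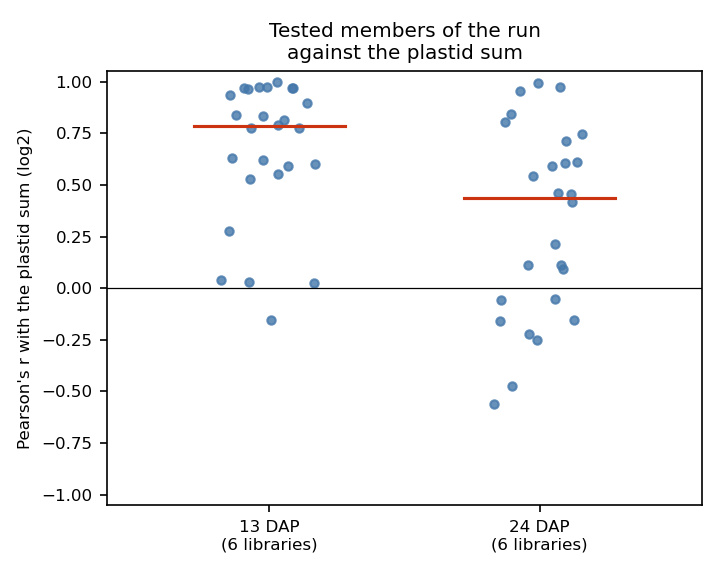
Pearson's r of each tested member with the plastid sum, on log2 values, over the 6 libraries at 13 DAP and the 6 at 24 DAP. Points are the 26 members tested at each stage, spread sideways at random, and red lines are medians, at 0.784 and 0.435. The 13 DAP libraries had been used to choose the run, and those at 24 DAP had not.

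The 8 members with the highest mean over all libraries held 87.9 to 90.1% of the run's counts in libraries taken 13 DAP, 88.0 to 91.6% in those taken 24 DAP and 71.2 to 82.2% in mature libraries. MtrunA17_Chr4g0015871 stood at 5429.8, 7146 and 9429.6 normalized counts in R108 and at 5109.6, 10305 and 8771 for abi4-1 at 13 DAP. At 24 DAP it stood at 3585, 3217 and 4409.5 for R108 and 4891, 4491 and 5037 for abi4-1. Its mature values were 485, 680 and 455 for R108, 134, 94.8 and 86.6 for abi4-1, and 178, 179 and 113 for abi4-2. Each abi4-1 library was thus above each R108 library at 24 DAP and below each in mature seeds, while the genotypes overlapped at 13 DAP. As a percentage of the plastid sum, this member ran from 16.9 to 40.7 in developing libraries and from 0.420 to 0.813 in mature ones.

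Another pair of members, MtrunA17_Chr4g0015651 and MtrunA17_Chr4g0015841, were high at every stage. The 13 DAP level of MtrunA17_Chr4g0015651 was 1703 ± 623 normalized counts for R108 and 1548 ± 557 for abi4-1, and its 24 DAP level was 619 ± 191 and 746 ± 215 (SD, n = 3). In mature seeds its R108 libraries stood at 3178, 3675 and 3276, its abi4-1 libraries at 818, 836 and 834, and its abi4-2 libraries at 806, 733 and 676. It supplied 9.87 ± 1.41% of the run's counts in R108 at 13 DAP and 26.9 ± 1.15% in mature R108, where it was the largest contributor among the 8. The 13 DAP level of MtrunA17_Chr4g0015841 was 2379 ± 468 for R108 and 2269 ± 449 for abi4-1, and its 24 DAP level was 929 ± 142 and 1106 ± 220. Its mature values were 1644, 2249 and 1778 for R108, 243, 250 and 256 for abi4-1, and 253, 271 and 228 for abi4-2. For both members the mature R108 libraries lay above all 6 mature abi4 libraries, and the genotypes overlapped at 13 and 24 DAP.

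Other members were largely specific to developing or to mature libraries, as the values are listed. MtrunA17_Chr4g0015801 stood at 1090, 2240.5 and 2881 for R108 and 862, 2914 and 2530 for abi4-1 at 13 DAP. In all 3 mature R108 libraries it was listed at 0. In the mature abi4 lines it stood at 52.8, 0 and 38.7 for abi4-1 and 29.7, 156 and 231 for abi4-2. It was the one tested member with a difference above 0 in the mature abi4 lines, although its abi4-1 replicate 2 was at 0 like R108. In mature seeds it passed the filter through abi4 libraries alone, and so could only be higher than R108. MtrunA17_Chr4g0016641 and MtrunA17_Chr4g0015941 showed the opposite profile over the stages. MtrunA17_Chr4g0016641 did not exceed 139 in any developing library and stood at 1984, 2130.3 and 1952 in mature R108, with 321 ± 59.4 for abi4-1 and 329 ± 14.8 for abi4-2. MtrunA17_Chr4g0015941 lay between 10.1 and 33.6 in developing libraries and at 814, 1106 and 957 in mature R108, with 256 ± 22.3 for abi4-1 and 245 ± 17.6 for abi4-2. MtrunA17_Chr4g0015971 varied less, from 106 to 766 in developing libraries and at 320, 319 and 371 in mature R108, with 138 ± 17.6 for abi4-1 and 149 ± 64.8 for abi4-2.

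Members at 0 throughout one part of the series and present in the other were counted for the whole run. Of the 46 members that reached 10 normalized counts in some library, 13 were listed at 0 in all 9 mature libraries and reached 10 in a developing one, against 5.08% of the 26810 identifiers in all that reached 10. Another 4 were listed at 0 in all 12 developing libraries and reached 10 in a mature one, against 1.26% of those identifiers. The first pattern was not particular to the run. Of the 72 identifiers after it, 28 reached 10, and 9 of these showed the first pattern and 0 the second. Of the 72 before it, 35 reached 10, with 0 of the first pattern and 2 of the second. The developing values are deposited with 2 decimals and the mature ones with more, and the stages were scaled apart, so a stage and the authors' handling of it cannot be told apart.

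**Figure D4:**
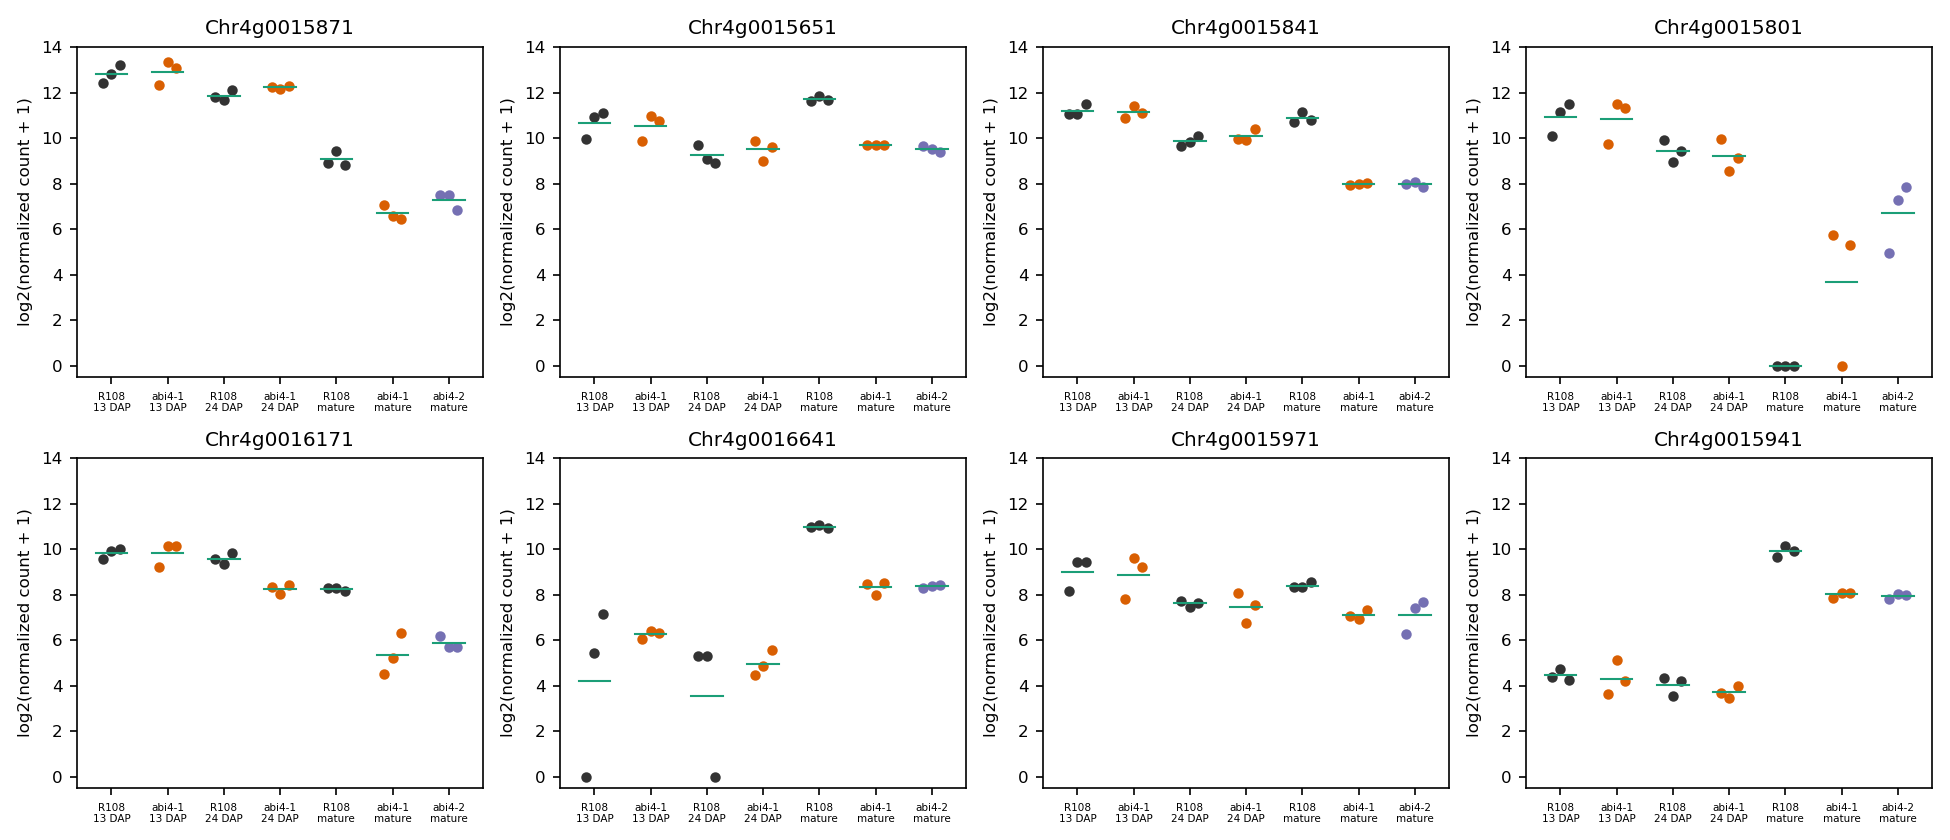
The 8 members with the highest mean, in each library, as log2(normalized count + 1). Points are libraries, green lines are means of the log2 values (n = 3), and a point at 0 is a library in which the member is listed at 0. MtrunA17_Chr4g0015801 is listed at 0 in the 3 mature R108 libraries, and MtrunA17_Chr4g0016171 is lower in abi4-1 than in R108 at 24 DAP.

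The rule that chose the run did not use the 24 DAP libraries. In abi4-1 against R108 at 24 DAP, 2 members passed the test when fitted without the replicate number. With limma fitted over all 19508 identifiers tested, 2 of 26 members were lower and 0 higher in abi4-1 (adjusted p under 0.05), beside 6.4% of all tested identifiers called lower and 9.64% called higher. At an unadjusted p under 0.05 the counts were 4 lower and 2 higher, beside 13.3% and 15.5% of all tested identifiers. Of the 72 identifiers before the run, 4 of 18 tested were lower and 1 higher, and of the 72 after it, 0 of 13 were lower and 1 higher. The median log2 difference of the tested members was -0.36, beside -0.011 over all identifiers tested and -0.29 over 67 plastid identifiers. With the replicate number as a block, the counts were 4 lower and 2 higher, beside 9.19% and 11.8% of all tested identifiers.

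MtrunA17_Chr4g0016171 was the clearest difference at 24 DAP. Its R108 libraries stood at 762, 656 and 896 normalized counts and its abi4-1 libraries at 318, 258 and 338. The groups did not overlap, and the log2 difference was -1.33 ± 0.14 (SE, limma adjusted p = 0.000126). The call was kept without each library in turn, with adjusted p from 5.51e-05 to 0.000889, and under every other setting tried. Set against the plastid sum of the same libraries, it stood at 4.52 ± 0.856% for R108 and 2.02 ± 0.403% for abi4-1 at 24 DAP, while at 13 DAP it stood at 2.29 ± 0.413% and 2.34 ± 0.286%. At 13 DAP its levels were 918 ± 144 for R108 and 945 ± 304 for abi4-1, with a log2 difference of -0.0052 ± 0.24 (limma adjusted p = 0.996). Whether its effect differed between the stages was not tested. Its mature values were 300 ± 12.9 for R108, 45.1 ± 29.3 for abi4-1 and 58.0 ± 12.4 for abi4-2.

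The second member called at 24 DAP was MtrunA17_Chr4g0016491, near the lower limit of the filter. It stood at 12.2, 18.0 and 18.9 for R108 and at 10.1, 0 and 0 for abi4-1 (log2 difference -2.94 ± 0.86, limma adjusted p = 0.0408). The call rests on 2 libraries listed at 0. It was lost without any single R108 library, without abi4-1 replicate 2 or 3 and with a pseudocount of 0.1, with adjusted p from 0.0626 to 0.137. MtrunA17_Chr4g0015871, higher in abi4-1 in each library at 24 DAP, had a log2 difference of 0.37 ± 0.12 and missed the threshold (limma adjusted p = 0.0550). With the replicate number as a block it passed (adjusted p = 0.00755), as did MtrunA17_Chr4g0016181, MtrunA17_Chr4g0015901 and MtrunA17_Chr4g0015931. The block gave MtrunA17_Chr4g0015901 and MtrunA17_Chr4g0015931 as lower, by log2 differences of -0.85 and -1.01, and MtrunA17_Chr4g0016181 as higher. For MtrunA17_Chr4g0016181, R108 replicates 2 and 3 were listed at 0, and R108 replicate 1, at 146, lay within the abi4-1 range.

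At 13 DAP, 1 of 26 tested members was lower in abi4-1 and 0 higher, beside 1.2% of 22499 identifiers called lower and 1.26% called higher with limma. At an unadjusted p under 0.05 the counts were also 1 and 0, beside 5.96% and 7.44%. The member called was MtrunA17_Chr4g0016371, which stood at 68.2, 53.8 and 56.2 for R108 and was listed at 0 in each abi4-1 library (limma adjusted p = 0.000155). It passed the filter through the 3 R108 libraries alone, and so could only be lower. At 24 DAP the same member stood at 30.1, 34.6 and 0 for R108 and at 74.9, 0 and 69.9 for abi4-1, and it was listed at 0 in all 9 mature libraries. Values of 0 and above 30 thus stood side by side within both 24 DAP groups. No member among the 8 most abundant was called at 13 DAP.

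Values of that kind were common in the run. Among pairs of a member and a group in which a library reached 50 normalized counts, 21 of 125 also held a library listed at 0, from 16 different members. Over all identifiers the share was 0.0687%, or 75 of 109219 pairs, so the run supplied 21 of those 75. The plastid identifiers had 6 of 441 such pairs, the 72 identifiers before the run 1 of 107 and the 72 after it 2 of 72. MtrunA17_Chr4g0016181 stood at 286, 0 and 477 for R108 and at 199, 405 and 308 for abi4-1 at 13 DAP. At 24 DAP it stood at 146, 0 and 0 for R108 and at 173, 75.9 and 41.6 for abi4-1. The source of these zeros was not tested, and no fold is given against a group listed at 0. This count was made after the values were seen.

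In mature seeds the falls in abi4-1 chose the run, and its values there are a description. Of 27 tested members 23 were lower in abi4-1 than in R108 and 1 was higher, beside 22.2% and 24% of 19429 identifiers called lower and higher with limma. In abi4-2 against the same 3 R108 libraries, 23 were lower and 1 higher, beside 20.5% and 22%. The median log2 difference was -2.45 for abi4-1 and -2.37 for abi4-2, beside -0.0026 and 0.0017 over all identifiers tested, and -2.03 and -1.90 over 79 plastid identifiers. For 2 of the 27 tested members all 6 abi4 libraries were below 10, so they passed the filter through R108 and had to be lower. The 1 member called higher in both lines, MtrunA17_Chr4g0015801, passed it through abi4 libraries alone and had to be higher. Among the members, MtrunA17_Chr4g0016361 was listed at 0 in all 6 mature abi4 libraries and stood at 173, 557 and 434 for R108.

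Some identifiers beyond both ends of the run were also lower in mature abi4 seeds, but the 72 before it showed no general fall. Among the 72 identifiers after it, 8 of 16 tested were lower in abi4-1 and 1 higher, with a median log2 difference of -0.28, and in abi4-2 8 were lower and 0 higher, with a median of -0.39. The tested identifiers directly after the run, from MtrunA17_Chr4g0016811 to MtrunA17_Chr4g0017011, were all lower in both lines, so the fall continued past the run's end. Their log2 differences ran from -3.44 to -1.37 in abi4-1 and from -4.94 to -1.15 in abi4-2. Of these, MtrunA17_Chr4g0016811 was not called in either line (limma adjusted p = 0.292 and 0.394). The next tested identifier, MtrunA17_Chr4g0017211, differed by -0.17 in abi4-1 and -0.21 in abi4-2. Among the 72 identifiers before the run, 4 of 21 tested were lower and 7 higher in abi4-1, with a median of -0.026, and 6 were lower and 3 higher in abi4-2, beside the shares of 22.2% lower and 24% higher over all identifiers in abi4-1, and 20.5% and 22% in abi4-2. Near the run's start, MtrunA17_Chr4g0015361 and MtrunA17_Chr4g0015371 differed by -1.77 and -2.84 on the log2 scale in abi4-1 and by -2.30 and -2.47 in abi4-2. The nearer MtrunA17_Chr4g0015471 differed the other way, by 4.50 in abi4-1 and 2.33 in abi4-2 (limma adjusted p = 0.02 and 0.217).

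**Figure D5:**
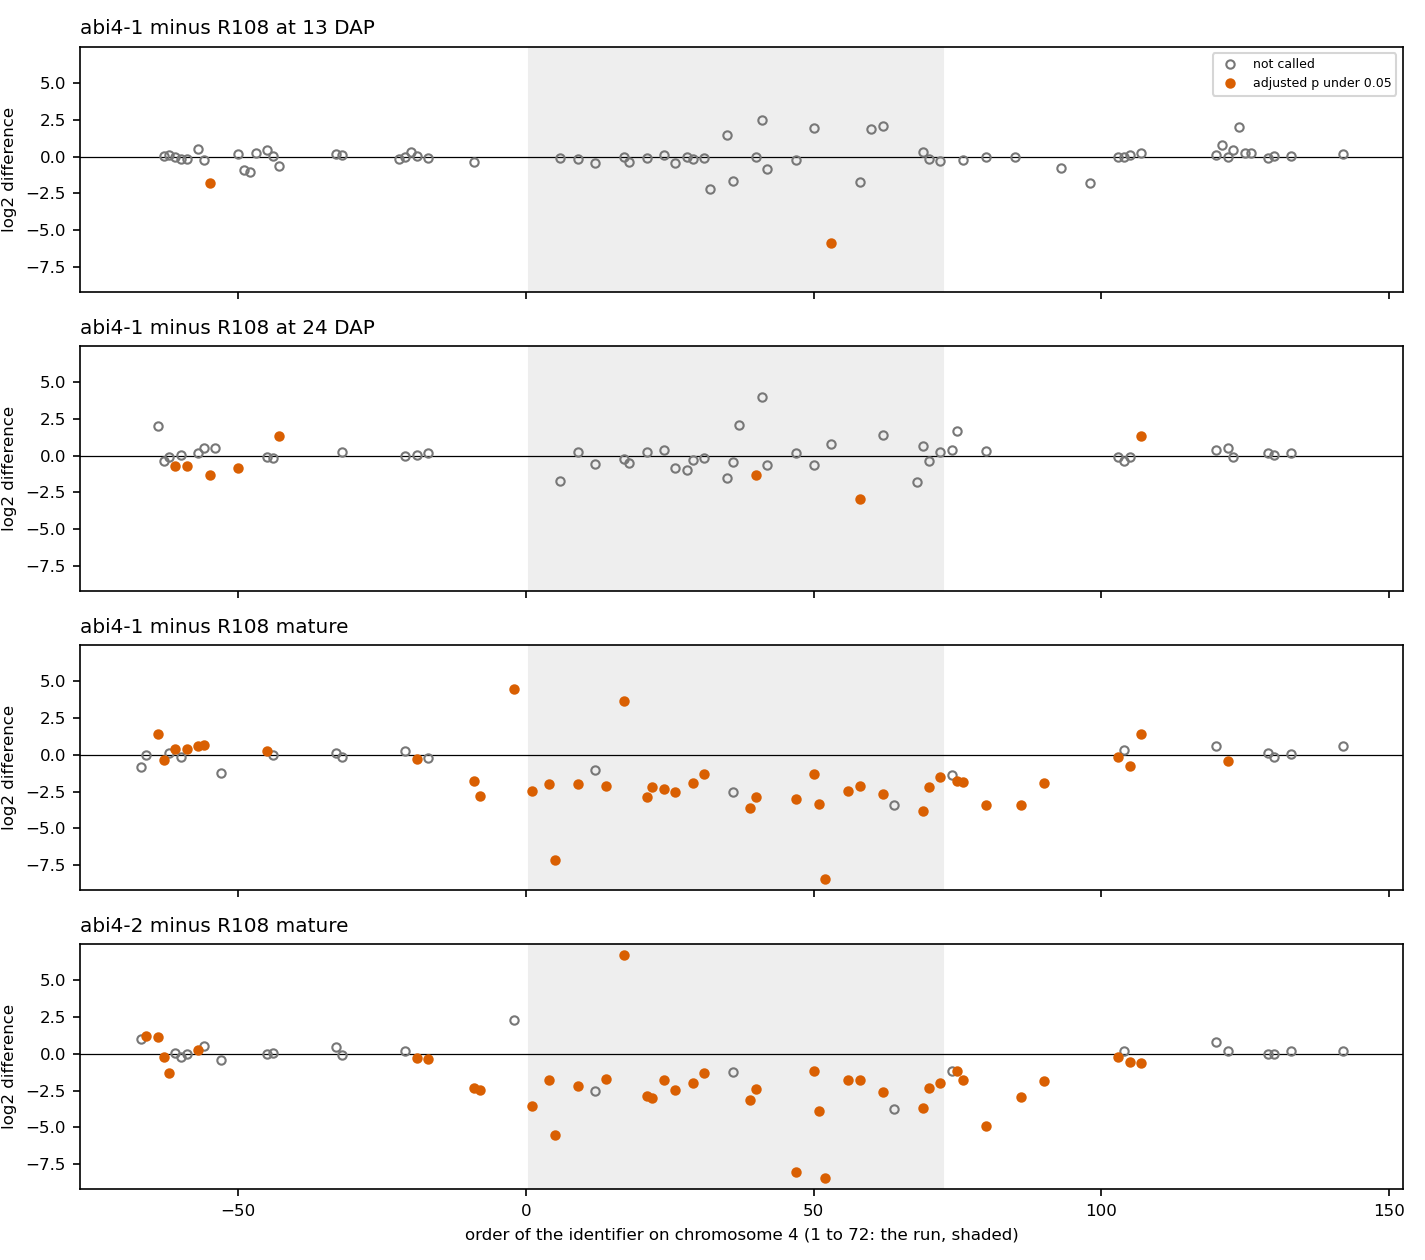
Log2 differences (on normalized count + 1) of the tested identifiers along chromosome 4, in the order of their numbers, for 4 comparisons with R108. The run is shaded, with 72 identifiers on each side; filled points passed an adjusted p of 0.05 with limma. Most tested members lie below 0 in mature seeds of both lines. At 13 and 24 DAP the tested members lie on both sides of 0, with medians of -0.13 and -0.36. The most extreme values belong to members listed at 0 in a group and depend on the pseudocount.

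Few members differed between the alleles in mature seeds. Of 27 tested members 0 were lower and 1 higher in abi4-1 than in abi4-2, beside 8.93% and 9.68% of identifiers called lower and higher with limma, and at an unadjusted p under 0.05 the counts were 4 and 3, beside 15.7% and 16.2%. The median log2 difference was -0.023, beside -0.050 over 79 plastid identifiers and -0.98 over 43 mitochondrial ones. The member called was MtrunA17_Chr4g0016261, at 20.9, 53.8 and 26.8 for abi4-1 and listed at 0 in each abi4-2 library (limma adjusted p = 5.17e-07). In mature R108 it stood at 223, 343 and 226. MtrunA17_Chr4g0015871 had a log2 difference of -0.57 ± 0.20 between the lines (limma adjusted p = 0.0560). MtrunA17_Chr4g0015841 differed by -0.0045 ± 0.10 (adjusted p = 0.983) and MtrunA17_Chr4g0016641 by -0.053 ± 0.11 (adjusted p = 0.775). MtrunA17_Chr4g0015651 did not overlap between the lines, with a log2 difference of 0.17 ± 0.07, and was not called (adjusted p = 0.115).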

How the data were processed

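RNA from 21 seed libraries was sequenced as short reads on a BGISEQ-500 after mRNA enrichment and random priming, per the labels' protocols. Salmon is named, without a version, in the submitters' processing notes; the sources used here do not give the build, the annotation or the normalization. What the authors deposited is treated as a signal, on a scale like that of normalized counts. Size factors by median of ratios were 1.00 within 13 DAP and 1.01 within the other 2 stages, but 1.55 to 1.58, 0.552 to 0.560 and 1.11 to 1.13 by stage over all 21 libraries. Values below 10 lay within 0.1 of a whole multiple of 1 read in 53.6 to 99.1% of cases, but those from 20 to 50 in 18.9 to 57.2%, so whole reads were not recovered and depth in reads is unknown.

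Each library's group and replicate number follow its own label; the series' design text names lines of another gene and was not followed for genotype. That text speaks of pooled seeds from different plants; should this not hold here, the p-values reflect spread that may be technical. Log2(value + 1) was fitted with limma 3.58.1 (R 4.3.3, intensity trend) within a stage, on identifiers at 10 or more in at least 3 libraries, with Benjamini-Hochberg adjustment over all of them and calls at 0.05. The fit was tested on simulated counts. Same-numbered libraries of the genotypes deviated together at 13 DAP (r 0.154 to 0.293) and 24 DAP (0.102 to 0.339). In mature seeds r had both signs (-0.039 to 0.141), though its upper end overlapped the 24 DAP range. Numbers were therefore read as pairs at 13 and 24 DAP only. The main limma fits were unpaired, and the replicate number entered as a block only where that is stated.

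The members, lists and tests were chosen with earlier results of these data known. Named with values are the 8 members of highest mean, both ends, their outer neighbours and the members called at 24 DAP; any other named identifier was chosen after its values were seen. Alternatives were another pseudocount, no filter, 2 other scalings, all libraries in 1 fit, the replicate block and omission of each library.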

Additional observations from a re-analysis of the deposited data

Results flagged for a closer look

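For MtrunA17_Chr4g0015871, every abi4-1 library lay above every R108 library at 24 DAP and below every R108 library in mature seeds. The 24 DAP level was 4806 ± 283 normalized counts for abi4-1 and 3737 ± 611 for R108 (log2 difference 0.37), and the mature level was 105 ± 25.4 for abi4-1 and 540.1 ± 122 for R108 (SD, n = 3). The difference between the stages was not tested, since falls in mature seeds chose the run.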

How the results depend on the processing

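The counts of called members at 24 DAP are small and moved with the setting. In place of 2 lower and 0 higher, a pseudocount of 0.1 gave 1 lower, and no filter, column totals and a fit of all 21 libraries each gave 1 higher. The replicate block gave 4 lower and 2 higher at 24 DAP, and 1 lower, in place of 0, between the mature alleles; it moved no other count of members by over 1.5 times. Leaving out a library gave 1 to 3 lower and 0 to 2 higher at 24 DAP, and 0 to 1 lower at 13 DAP, where without any single R108 library the 1 called member no longer passed the filter. For abi4-1 against R108 in mature seeds it gave 21 to 24 lower and 0 to 1 higher, the rise of MtrunA17_Chr4g0015801 losing its call without abi4-1 replicate 1 or 3. Between the alleles it gave 0 to 2 lower and 1 to 3 higher. The remaining counts under these alternatives stayed within 1.5 times.

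Without the 5 most abundant plastid identifiers the run stood at 54.3 and 57.7% of the plastid sum at 13 DAP in R108 and abi4-1, at 59.3 and 78.8% at 24 DAP, and at 17.8, 15.7 and 15.1% in mature R108, abi4-1 and abi4-2. Without MtrunA17_Chr4g0015871 it stood at 23.2, 22.7, 24.0 and 24.8% in the developing groups and at 12.1 and 11.2% in mature R108 and abi4-2. In each of these settings developing groups stayed above mature ones. Depth in reads is unknown, so no limit of detection is given for members near or at 0.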
